A study of Rattus norvegicus with 15 samples.

Results

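Expression of 7 genes of the thick ascending limb and distal nephron was described in rat kidneys. They were the salt cotransporter Slc12a1, the potassium channels Kcnj1, Kcnj10 and Kcnj16, the claudin Cldn10, and the secreted or shed proteins Umod and Egf. Members were all probe sets whose platform annotation named 1 of these 7 symbols, which gave 12 of the 26379 probe sets of the series (7 of 10969 genes with a symbol of their own). Total RNA from kidneys of 5-week-old rats had been hybridised to 3 array designs (A, B and C), each carrying 5 kidneys. Kidneys 1 to 3 were Dahl salt-sensitive (Dahl S, n = 3) on every design. Kidneys 4 and 5 of designs B and C came from a chromosome 10 congenic strain of the Dahl S rat (n = 2), that is, one that carries a chromosome segment from another strain. The description of kidney 4 on B names the congenic strain without Dahl S, and the other 3 name both. The sources used here give neither the segment's limits nor the donor strain. No diet, salt load or other treatment is given for any kidney. On design A the strain of kidneys 4 and 5 was treated as unsettled, because their descriptions name Dahl S while the same numbers are congenic elsewhere. Their values are therefore given singly and enter no test. Whether the kidneys stem from different animals is not stated, so p-values measure only how far these samples spread, and that spread may be technical. Design A held 11 of the 12 probe sets and design B the other, that of Cldn10, so the strains were compared for Cldn10 alone. In the rat assembly GRCr8 Umod lies on chromosome 1, Egf on 2, Slc12a1 on 3, Kcnj1 on 8, Kcnj16 on 10, Kcnj10 on 13 and Cldn10 on 15.

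The thick ascending limb reabsorbs sodium chloride without water and so dilutes the urine. Its cells take up sodium, potassium and chloride from the lumen through the cotransporter Slc12a1 (NKCC2), the target of loop diuretics. Potassium returns to the lumen through the channel Kcnj1 (ROMK), and the lumen-positive voltage this creates drives cations between the cells through pores formed by claudins such as Cldn10. On the blood side of the distal nephron, Kcnj10 (Kir4.1) and Kcnj16 (Kir5.1) form a channel that sets the membrane voltage. The same segments secrete uromodulin (Umod), the main protein of normal urine, and carry the precursor of epidermal growth factor (Egf). In whole kidney RNA, fewer cells of a type and less RNA per cell cannot be told apart.

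Signals are linear intensities that had been scaled per array before deposit, and the median signal of an array was 294.5 to 334.3 for design A and 472.8 to 519.5 for design B. A probe set was called measured where its mean over the 5 kidneys reached the median of its design (319.5 on A, 485.8 on B). Control probe sets for the opposite strand of Gapdh and beta-actin, which are meant to read no transcript, measured 25.8 to 442.2 on A. On B they measured 47.2 to 961.6 and on C 48.5 to 835.5. A measured probe set can thus lie within the range of these controls. By the median rule 10 of the 12 probe sets were measured, 9 of them on A, and both probe sets of Kcnj10 were not. The ratio of the 3′ to the 5′ control of beta-actin on A was 1.42 to 1.55 in kidneys 1 to 3 and 1.32 and 1.35 in kidneys 4 and 5, and that of Gapdh 1.06 to 1.07 against 1.04 in both.

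**Figure D1:**
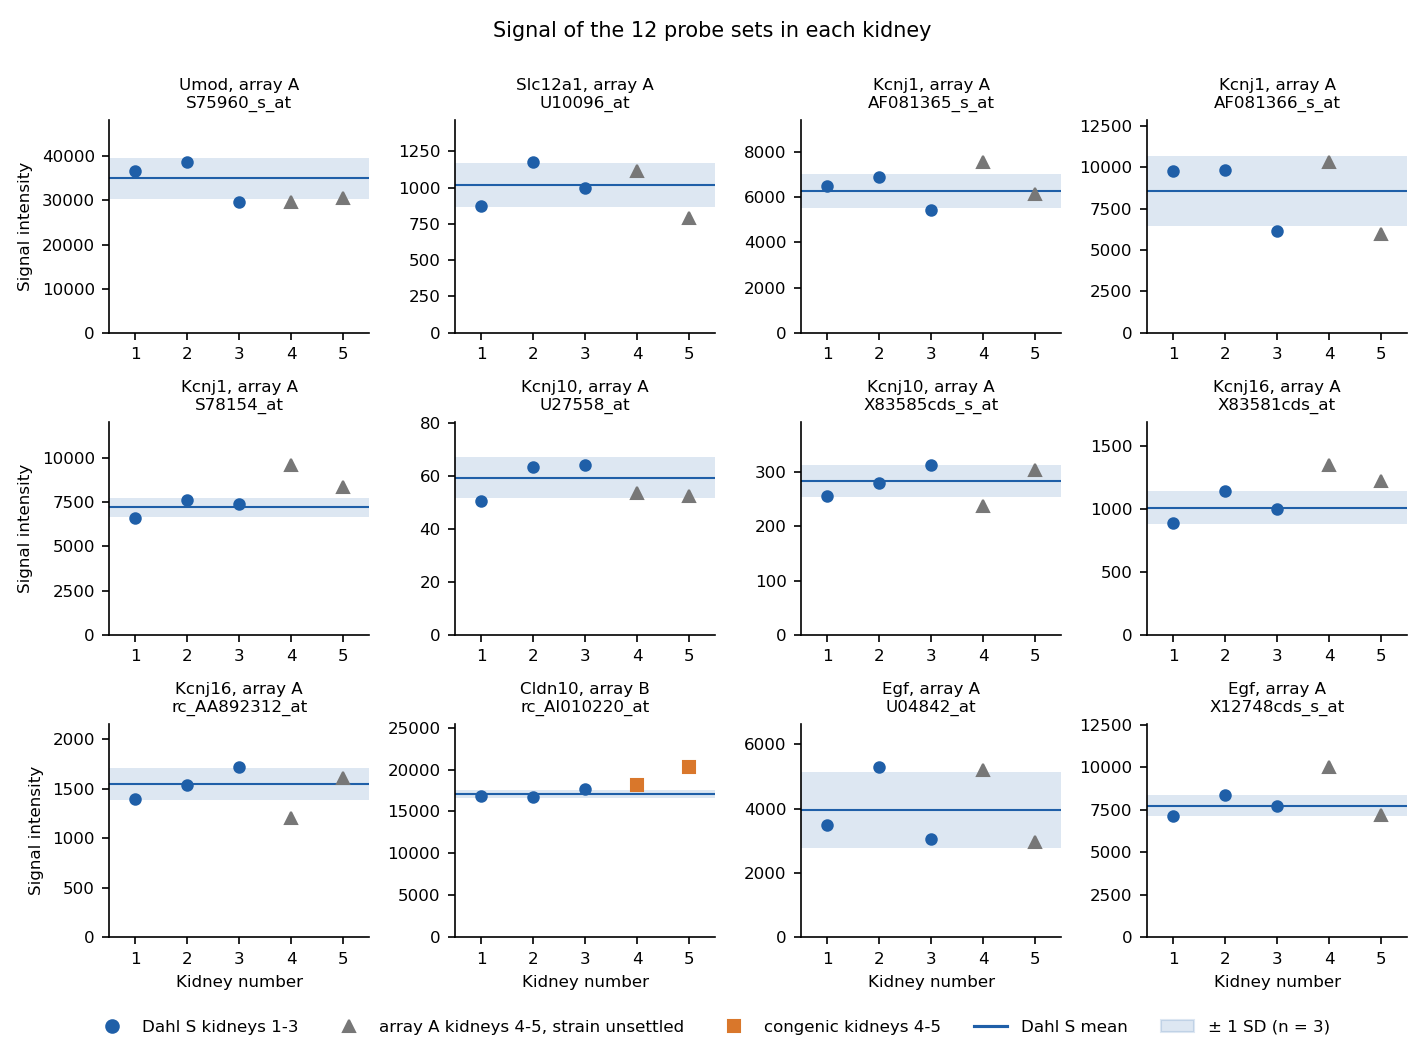
Signal intensity (vertical axes, linear, from 0) of each of the 12 probe sets in kidneys 1 to 5 (horizontal axes). Points are single kidneys, lines and bands the mean ± 1 SD of Dahl S kidneys 1 to 3 (n = 3); triangles mark kidneys 4 and 5 of array A, whose strain is unsettled, and squares congenic kidneys. For Kcnj1 S78154_at, Kcnj16 X83581cds_at and Cldn10 both kidneys 4 and 5 lie above all Dahl S kidneys.

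Slc12a1, the apical cotransporter, varied by 1.49-fold between the highest and the lowest of the 5 kidneys of array A. Its probe set U10096_at read 870.4, 1173 and 999.5 in Dahl S kidneys 1, 2 and 3, a mean of 1014 ± 152 (SD, n = 3), and 1117 and 788.9 in kidneys 4 and 5. Kidney 4 lay within the range of the Dahl S kidneys and kidney 5 below it, so the values did not separate. The spread of this probe set over the Dahl S kidneys, 0.22 on the log2 scale, was larger than that of 57.7% of the 4411 measured probe sets of the array (median 0.19).

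Kcnj1, through which potassium recycles across the apical membrane, was read by 3 probe sets that did not vary alike. AF081366_s_at measured 9778, 9807 and 6120 in Dahl S kidneys 1, 2 and 3 (8568 ± 2120, SD, n = 3) and 10293 and 5987 in kidneys 4 and 5. Kidneys 3 and 5 were thus low and the other three high, with 1.72-fold between the highest and the lowest. AF081365_s_at measured 6508, 6924 and 5448 in the Dahl S kidneys (6293 ± 761, SD, n = 3), and 7551 and 6148 in kidneys 4 and 5. Its order was close to that of AF081366_s_at, with kidneys 4 and 2 highest and kidney 3 lowest, but its range was narrower at 1.39-fold. S78154_at measured 6582, 7605 and 7408 in the Dahl S kidneys (7198 ± 543, SD, n = 3), and 9606 and 8317 in kidneys 4 and 5. Both of the latter lay above every Dahl S kidney, while kidney 1 was the lowest. Against the mean of the 5 kidneys on the log2 scale, kidney 1 deviated by 0.26 on AF081366_s_at and by -0.25 on S78154_at, and kidney 5 by -0.45 and 0.09. The coefficient of variation over the Dahl S kidneys was 24.7% for AF081366_s_at, 12.1% for AF081365_s_at and 7.54% for S78154_at. The log2 SD of AF081366_s_at over the same kidneys exceeded that of 88.3% of the measured probe sets, and that of S78154_at exceeded 22.6%. Names ending in _s_at mark probe sets that can match more than 1 transcript.

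The RefSeq promoter table of rat assembly GRCr8 lists a pair of starts for Kcnj1, and the 250 bases before each are shown because the probe sets of this gene differ. Which start each probe set reads was not tested, and the array annotation names no build. In the sequences, capitals mark matches on either strand to any of 11 short motifs: TATAAA (the core promoter box), CCAAT (bound by NF-Y), GGGCGG (GC box), CACGTG (E-box), GTTAAT (a half-site of the factor HNF1), the full palindromic HNF1 site, TGAGTCA (AP-1), AAGGTCA and TGACCTTG (nuclear receptors), TAATNATTA and TTGGCC. The motif AAGGTCA lies within the reverse complement of TGACCTTG, and TAATNATTA within the full HNF1 site, so these overlap.
Kcnj1, first start, chr8:39037742-39037991, plus strand: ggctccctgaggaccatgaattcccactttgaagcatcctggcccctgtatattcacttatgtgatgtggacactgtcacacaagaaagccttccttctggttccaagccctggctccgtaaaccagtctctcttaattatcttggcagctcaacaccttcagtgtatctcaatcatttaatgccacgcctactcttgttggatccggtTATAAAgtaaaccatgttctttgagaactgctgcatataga
Kcnj1, second start, chr8:39061391-39061640, plus strand: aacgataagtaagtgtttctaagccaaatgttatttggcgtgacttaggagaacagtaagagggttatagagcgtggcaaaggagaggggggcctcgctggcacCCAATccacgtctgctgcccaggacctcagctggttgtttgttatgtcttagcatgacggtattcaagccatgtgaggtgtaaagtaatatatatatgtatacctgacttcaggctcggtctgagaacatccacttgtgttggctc
The first window holds 1 TATAAA and no CCAAT, and the second 1 CCAAT and no TATAAA, with no match to the other 9 motifs in either. Of the 33469 windows in the table, 12.9% hold TATAAA and 34.0% hold CCAAT. The windows do not overlap and hold 45.2% and 46.8% G and C, against a median of 51.2% over all windows.

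Kcnj16 and Kcnj10 encode subunits of 1 basolateral channel, and of these Kcnj16 was measured and Kcnj10 was not. Kcnj16 lies on chromosome 10, which carries the congenic segment, and was present on array A alone. X83581cds_at, from the coding sequence, read 886.2, 1148 and 998.2 in Dahl S kidneys 1, 2 and 3 (1011 ± 131, SD, n = 3), and 1354 and 1228 in kidneys 4 and 5. Both of the latter lay above the Dahl S range, at 1.34 and 1.21 times the Dahl S mean. The other Kcnj16 probe set, rc_AA892312_at, from an expressed sequence tag, read 1395, 1532 and 1719 in the Dahl S kidneys (1549 ± 162, SD, n = 3), and 1203 and 1610 in kidneys 4 and 5. Here kidney 4 was the lowest of all, at 0.777 times the Dahl S mean, and kidney 5 lay inside the Dahl S range. The probe sets of Kcnj16 therefore placed kidney 4 at opposite ends, with log2 deviations from the mean of the 5 kidneys of 0.29 and -0.30. The order of the kidneys on X83581cds_at, from 4 and 5 through 2 and 3 to 1, was the order seen on Kcnj1 S78154_at.

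The Kcnj10 probe set U27558_at read 50.6, 63.5 and 64.4 in Dahl S kidneys and 53.7 and 52.4 in kidneys 4 and 5. All 5 values lay below the 25th percentile of the array (85.1), which served as the floor. Kcnj10 X83585cds_s_at read 255.8, 280.3 and 313.9 in Dahl S kidneys and 236.8 and 304.1 in kidneys 4 and 5, below the highest opposite-strand control of the same array in kidneys 1, 3 and 4 (442.2, 372.2 and 294.3) and above it in kidneys 2 and 5 (163.5 and 259.4). U27558_at therefore gives no order between kidneys, and X83585cds_s_at was near the level of these controls.

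The upstream windows of the paired subunits are shown because 1 of them was measured and the other was not. Any part of the windows in this difference was not tested. Both are RefSeq entries of GRCr8.
Kcnj16, chr10:96517074-96517323, plus strand: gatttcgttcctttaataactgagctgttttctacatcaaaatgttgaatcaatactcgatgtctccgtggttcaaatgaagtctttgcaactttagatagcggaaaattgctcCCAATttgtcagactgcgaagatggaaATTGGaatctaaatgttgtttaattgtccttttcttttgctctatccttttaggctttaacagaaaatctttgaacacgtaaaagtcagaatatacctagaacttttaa
Kcnj10, chr13:87334260-87334509, plus strand: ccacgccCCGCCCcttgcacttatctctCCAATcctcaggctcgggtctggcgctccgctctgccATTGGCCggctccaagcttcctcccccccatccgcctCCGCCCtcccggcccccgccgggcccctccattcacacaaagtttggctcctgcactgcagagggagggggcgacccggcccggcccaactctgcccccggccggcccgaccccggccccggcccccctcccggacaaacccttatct
The Kcnj16 window holds 33.6% G and C and no GC box, and the Kcnj10 window 72.4% and 2 GC boxes, a motif that 30.5% of all windows hold. Each holds 2 matches to CCAAT. All 7 genes matched the table, with 9 windows. The windows of Slc12a1 overlap, and their matches lie in the shared stretch, so the same matches are counted in both. Of the 11 motifs, 5 matched at least 1 of these windows: CCAAT in 6, TTGGCC in 3 (both of Slc12a1 and that of Kcnj10; 13.1% of all windows), TATAAA in 2 (Umod and Kcnj1), GGGCGG in 1 (Kcnj10) and GTTAAT in 1 (Cldn10; 6.45% of all windows). The other 6 matched none, among them TGAGTCA and CACGTG, which 4.05% and 5.59% of all windows hold, AAGGTCA (3.99%), TGACCTTG (1.33%), TAATNATTA (0.562%) and the full HNF1 site (0.0956%). Each TTGGCC match in these windows overlaps a CCAAT match. The Egf window held no match.

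No Kcnj16 neighbour of chromosome 10 passed the strain test. Since Kcnj16 itself was not on B or C, the 10 tested genes on each side of it in GRCr8 gene order were read from those designs, a choice made after seeing the data, which gave 23 tests of 20 genes, 15 on B and 8 on C. The background on B was 4 calls in 4385 tested probe sets (0.0912%; 1 higher in congenic kidneys, 0.0228%, and 3 lower, 0.0684%) and on C 0 calls in 4420 (0%) with 274 at an unadjusted p under 0.05 (limma with Benjamini-Hochberg adjustment; threshold 0.05). Of the 23 log2 differences, congenic minus Dahl S, 10 were positive and 13 negative, with a median of -0.05, against -0.02 over the 545 chromosome 10 tests. They ranged from -0.41 for C10h17orf58 to 0.47 for Apoh, both on C, and the smallest limma adjusted p was 0.775. At an unadjusted p under 0.05 there were 3 of the 23, namely C10h17orf58, Apoh and Nherf1, against 44 of the 545 chromosome 10 tests. All 3 were among the 8 tests on C, where 274 of all 4420 tests reached this p. None of the 15 tests on B did, where 153 of all 4385 tests reached it. Nherf1, a scaffold of apical transporters, averaged 633 (Dahl S) and 855 (congenic) on C, and 22822 and 25509 on B. The highest opposite-strand control of each array of C read 603.3 to 835.5. The C values of C10h17orf58, Apoh and Nherf1 lay near or below this level. Congenic values lay above all Dahl S values in 4 of the 23 tests (Psmd12 and Nherf1 on B, Apoh and Nherf1 on C). They lay below in 4 (Abca8a and Nt5c on B, C10h17orf58 and Jpt1 on C). These are out of 15 tests on B and 8 on C. On B 7.73% of all tested probe sets had congenic values above all Dahl S values and 9.44% below, and on C 10.2% and 12.2%. The coding genes adjacent to Kcnj16 are Map2k6 and Kcnj2, and both were present on A alone, where Kcnj2 read 4.7 to 23.2, below the floor.

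**Figure D2:**
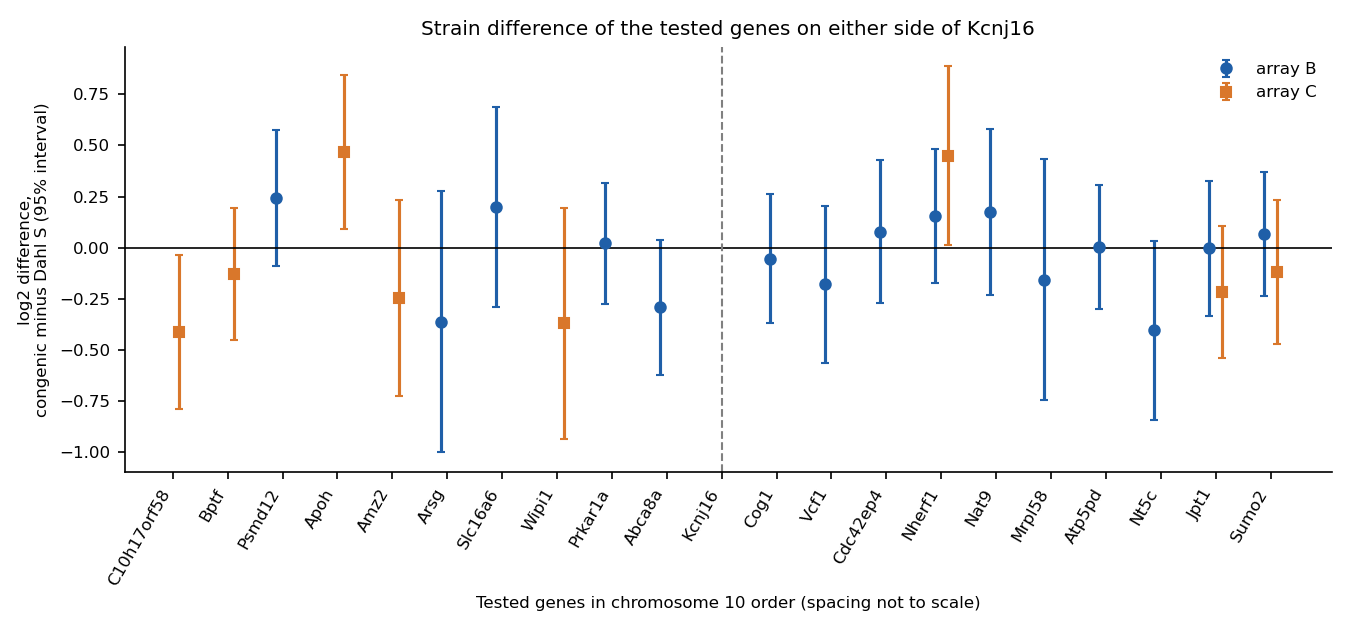
Log2 difference in signal between congenic (n = 2) and Dahl S (n = 3) kidneys (vertical axis) for the 20 tested genes nearest to Kcnj16 on chromosome 10, in gene order (horizontal axis, not to scale). Circles are array B, squares array C, bars 95% confidence intervals of the limma fit, and the dashed line the place of Kcnj16, which was not tested; the differences lie between -0.41 and 0.47 on both sides of 0.

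Cldn10, which forms paracellular cation pores in the thick ascending limb, was the 1 member that could be compared between the strains, and it did not pass the test. Its probe set rc_AI010220_at on array B read 16905, 16676 and 17679 in Dahl S kidneys 1, 2 and 3, and 18192 and 20326 in congenic kidneys 4 and 5. Both congenic values lay above all Dahl S values, as 7.73% of the tested probe sets of B did. The means were 17087 ± 526 (SD, n = 3) and 19259 ± 1510 (SD, n = 2). The fitted ratio was 1.13. In the limma fit the log2 difference was 0.17 ± 0.13 (SE), with an adjusted p of 0.998. The 95% confidence interval of the fold ran from 0.906 to 1.40, so a rise of 1.4-fold or a small fall could not be told from no change. The spread over the Dahl S kidneys was small, at a coefficient of variation of 3.08%. On the log2 scale the SD of Cldn10 over these kidneys was 0.04, larger than that of 5.52% of the measured probe sets of B. Cldn10 lies on chromosome 15, outside the congenic chromosome.

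**Figure D3:**
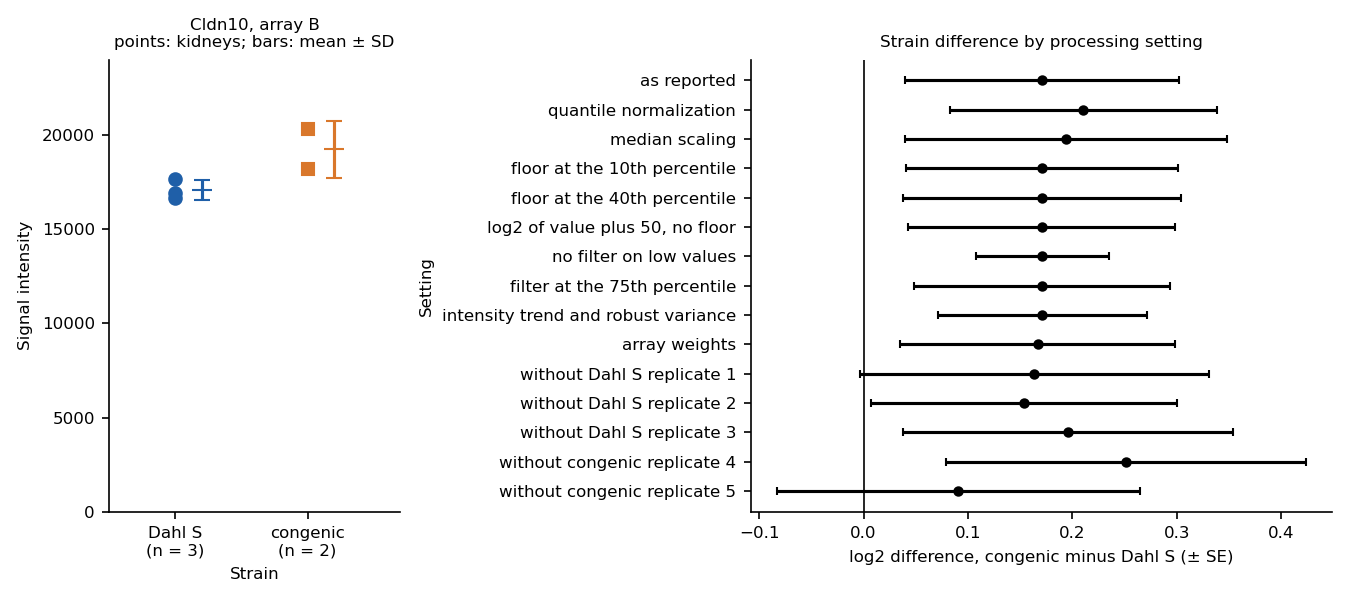
Left, Cldn10 signal intensity on array B in Dahl S (n = 3) and congenic (n = 2) kidneys, with mean ± SD beside the points. Right, the log2 difference, congenic minus Dahl S, with its SE as reported and under 14 other settings, all of which lie between 0.09 and 0.25.

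Umod, the urinary glycoprotein made by the thick ascending limb, read 36635, 38633 and 29721 in Dahl S kidneys 1, 2 and 3 on S75960_s_at (34996 ± 4676, SD, n = 3). Kidneys 4 and 5 read 29764 and 30489, near the lowest Dahl S kidney and within the Dahl S range. Kidneys 1 and 2 were thus high and the other three low, with 1.30-fold between the extremes, the narrowest range among the 9 measured member probe sets of A. Over all 4411 measured probe sets of A, 37.2% had a smaller log2 SD over the 5 kidneys.

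Egf was read by 2 probe sets. U04842_at measured 3499, 5298 and 3068 in Dahl S kidneys (3955 ± 1183, SD, n = 3), and 5192 and 2957 in kidneys 4 and 5. Kidneys 2 and 4 stood above the other three, and the range of 1.79-fold was the widest of the members. X12748cds_s_at, from the coding sequence, measured 7112, 8352 and 7738 in Dahl S kidneys (7734 ± 620, SD, n = 3), and 10017 and 7207 in kidneys 4 and 5. Its highest kidneys were again 4 and 2, but kidney 2 deviated from the mean of the 5 by 0.06 on the log2 scale here and by 0.45 on U04842_at. The coefficient of variation over the Dahl S kidneys was 29.9% for U04842_at and 8.02% for X12748cds_s_at.

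**Figure D4:**
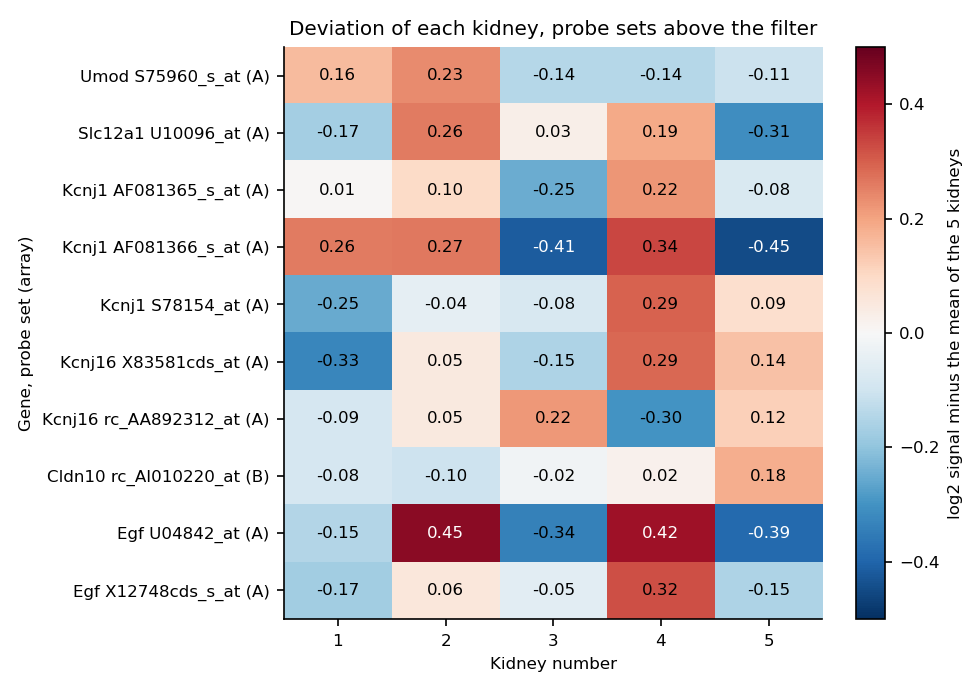
Log2 signal of each kidney (columns) minus the mean of the 5 kidneys of its array, for the 10 measured probe sets (rows); red is above and blue below the mean. Kidney 4 is high for Slc12a1, Kcnj1, Egf and Kcnj16 X83581cds_at and low for Umod and Kcnj16 rc_AA892312_at, and kidneys 3 and 5 are low for Kcnj1 AF081366_s_at and Egf U04842_at.

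Across the 9 measured probe sets of array A, kidney 4 was the highest in 5 and kidney 2 in 3, and both were among the 2 highest for Slc12a1, Egf (both probe sets), Kcnj1 AF081365_s_at and Kcnj1 AF081366_s_at. Kidney 5 was the lowest in 3, kidney 1 in 3 and kidney 3 in 2. Both kidneys 4 and 5 lay above all Dahl S kidneys in 2 of the 9 and below in 0. Of the 4411 measured probe sets of A, 8.82% had both above and 10.1% both below. The coefficients of variation over the Dahl S kidneys ran from 7.54% to 29.9% (median 13.0%). By log2 SD over these kidneys, 4 of the 9 probe sets varied more than the median measured probe set.

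Markers of other cell types differed between the same kidneys of A. Taking the brightest probe set of each gene, the members measured (5 genes) had median log2 deviations from the Dahl S mean of -0.12, 0.15 and -0.01 in kidneys 1, 2 and 3, and of 0.15 and -0.19 in kidneys 4 and 5. Proximal tubule markers, of which 14 of 18 were measured (Slc34a1 and Kap the brightest), gave -0.02, 0.12, -0.08, 0.04 and -0.02 in kidneys 1 to 5, and their summed signal was 183065 to 218465 in the Dahl S kidneys and 172052 and 206452 in kidneys 5 and 4. Stromal markers (6 of 7 measured, among them Col1a1 and Col3a1) gave 0.21, -0.25, 0.02, -0.44 and -0.23. Their summed signal was 26580 to 33300.3 in the Dahl S kidneys and 22291 and 24745 in kidneys 4 and 5. Leukocyte markers (Cd74 and C1qb measured, Ptprc below the filter, of 9) gave 0.27, -0.22, -0.06, -0.49 and -0.08, with sums of 7417 to 10019 in the Dahl S kidneys and 5854 and 8101 in kidneys 4 and 5. The brighter of these, Cd74, read on X13044_at 8809, 6554 and 6843 in kidneys 1 to 3 and 4925 and 7145 in kidneys 4 and 5. A second Cd74 probe set, X14254cds_g_at, instead had kidney 2 highest, at 6869, 7538 and 4918 in kidneys 1 to 3 and 4633 and 5384 in kidneys 4 and 5. Collecting duct principal cell markers (7 of 10 measured, Hsd11b2 and Aqp2 the brightest) gave -0.04, -0.04, 0.07, 0.18 and 0.01, and their summed signal was 25588 to 28528 in the Dahl S kidneys and 31974 and 27801 in kidneys 4 and 5. Blood markers (Hbb and Hbb-b1 the brightest) gave 0.20, -0.26, 0.06, 0.11 and 0.29. Intercalated cell markers (Car2 and Slc4a1) gave -0.26, 0.17, 0.06, -0.02 and -0.06, and glomerular markers (Ptpro and Synpo) -0.14, 0.03, 0.13, 0.14 and 0.13. Endothelial markers (Pecam1 and Flt1) gave 0.01, -0.11, 0.11, -0.11 and 0.27, and markers of the thin limb and inner medulla (Aqp1 and Akr1b1) 0.03, 0.08, 0.10, -0.01 and 0.11. Reference genes (Actb and B2m) gave 0.05, -0.03, -0.04, -0.08 and 0.16. Kidneys 2 and 4, which were high for Slc12a1 and Egf, also had the lowest medians for stromal, leukocyte and endothelial markers. They had the highest medians for proximal tubule markers. The leukocyte median rests on 2 genes. Not all members were high in kidney 4, where Umod read 29764, near its lowest value, and Kcnj16 rc_AA892312_at was lowest. The part of the marker lists in the member values was not tested.

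**Figure D5:**
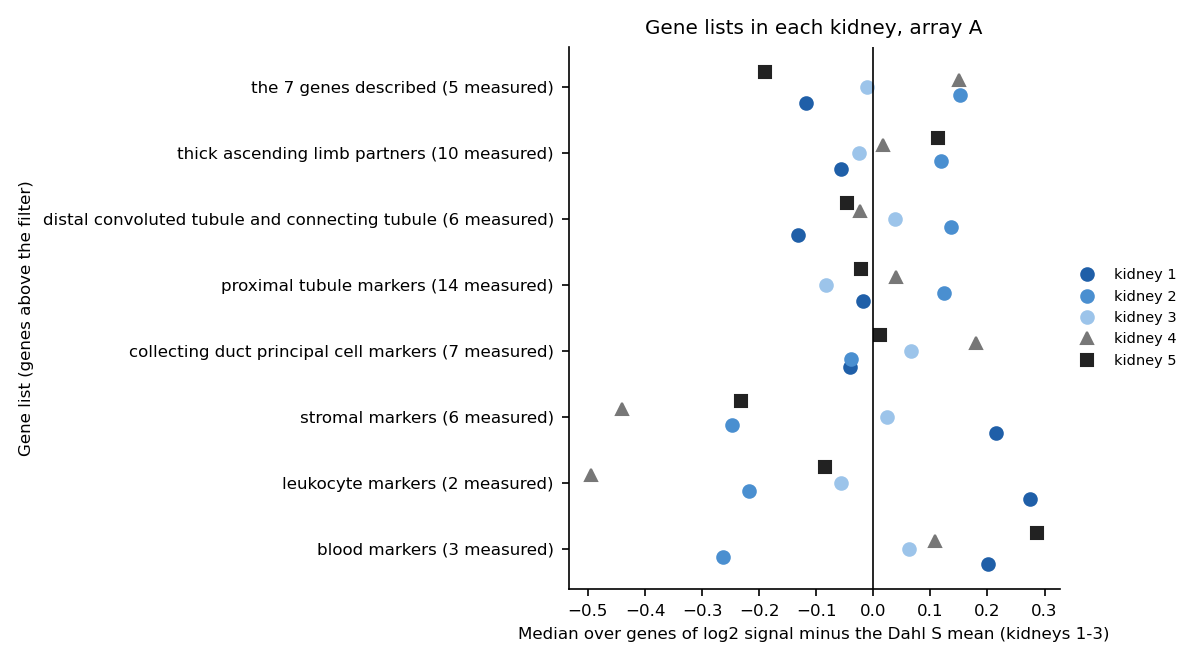
Median over genes of the log2 signal minus the Dahl S mean (horizontal axis) for 8 gene lists (vertical axis) in each kidney of array A. Circles are Dahl S kidneys 1 to 3, the triangle and square kidneys 4 and 5 of unsettled strain. Kidneys 2 and 4 lie highest for the members and the proximal tubule list and lowest for the stromal and leukocyte lists.

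Other genes of the pathway were read from lists, with no call between the strains on either design. Of 24 genes listed as thick ascending limb partners, 6 were tested on B (2 higher, 4 lower, 0 called, median log2 difference -0.11). On C 6 were tested (3 higher, 3 lower, 0 called, median -0.03). Wnk4, tested on B, was counted both here and among the distal convoluted tubule genes. The median over all tested probe sets was -0.01 on each design. The list median on B was 0.02 without congenic kidney 4 and -0.33 without congenic kidney 5, and that on C was 0.09 without congenic kidney 4 and 0.09 with no filter on low values, so neither had a stable sign. On B the smallest p among them was that of Ppp1r1b (DARPP-32), an inhibitor of protein phosphatase, which read 4467, 5676 and 5180 in kidneys 1 to 3 and 3702 and 4299 in kidneys 4 and 5 (log2 difference -0.35, limma adjusted p = 0.998). All congenic values lay below the Dahl S values, as for 9.44% of the tested probe sets of B. The kinase Wnk1, which acts upstream of Oxsr1, read 1132, 1378 and 1426 against 943 and 1157 on B, with overlap. A brighter Wnk1 probe set on C read 12886, 15040.5 and 14957 against 14096 and 11836, also with overlap. Rragd, a GTPase that signals to the kinase mTORC1, read 1338, 1616 and 39.2 in the Dahl S kidneys of B and 1569 and 1223 in the congenic ones, and Dahl S kidney 3 stood apart. The kinase Oxsr1, which phosphorylates Slc12a1, read 746.6, 677.6 and 584.4 in kidneys 1 to 3 of C and 1164 and 793.4 in kidneys 4 and 5 (log2 difference 0.53, limma adjusted p = 0.775). Only the kidney 4 value lay above the highest opposite-strand controls of the arrays of C (603.3 to 835.5). The brightest Oxsr1 probe sets of A and B lay below the filter. That on B read 352.1, 382.7 and 290.4 against 142.6 and 308.7, with overlap. Atp1b1, a subunit of the sodium pump, read 35105, 39617 and 41330 against 34079 and 30308 on C, with both congenic values below. Of the tested probe sets of C, 12.2% had both congenic values below all Dahl S values. Cldn19, a claudin of the thick ascending limb needed for magnesium reabsorption, read 4040, 4052 and 3885 against 3135 and 3907 on C. On A, where 10 of the 24 were measured, the brightest were Atp1b1 (44863 ± 3663, SD, n = 3), the trefoil peptide Tff3 (42504 ± 4536) and the beta-defensin Defb1 (21162 ± 3793). Tff3 read 44770 and 29441 in kidneys 4 and 5, so kidney 5 lay below the Dahl S range of 37798 to 46849.

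Of the distal convoluted and connecting tubule genes, 3 were tested on B (2 higher, 1 lower) and 3 on C (3 higher), with 0 called and median log2 differences of 0.17 and 0.21 (on B 0.05 without Dahl S kidney 1). Calb1, the calcium binding protein of that segment, read 12744, 15132 and 10819 in kidneys 1 to 3 of C and 14905 and 15222 in kidneys 4 and 5, with overlapping values. The sodium-calcium exchanger Slc8a1 read 3596, 4304 and 4341 against 4763 and 4470 on B (log2 difference 0.18, limma adjusted p = 0.998). Both congenic values lay above all Dahl S values, as for 7.73% of the tested probe sets of B. Cul3 and Wnk4, regulators of the thiazide-sensitive cotransporter, had log2 differences of 0.17 and -0.15 on B, and Cul3 and the mineralocorticoid receptor Nr3c2 of 0.21 and 0.13 on C, all with overlap. On A, where 6 of 18 were measured, Calb1 (12819 ± 2081, SD, n = 3), the kallikrein Klk1 (12179 ± 921) and Hsd11b2 (7795 ± 793), which inactivates glucocorticoid, were the brightest. Klk1 read 16533 and 12590 in kidneys 4 and 5, and kidney 4 lay above the Dahl S range of 11341 to 13165.

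Of 21 other potassium channel genes, 18 were present on A and 7 of these were measured. The brightest were Kcnj15 (3534 ± 365, SD, n = 3), an inward rectifier, Kcnk1 (1552 ± 59.8) and Kcnh2 (940 ± 113). Kcnk1 was also tested on B, at 2737, 2846 and 2530 in kidneys 1 to 3 and 2329 and 3458 in kidneys 4 and 5, with a log2 difference of 0.07, and Kcne2 gave 0.03. The other claudins gave 3 tested genes on B, with 0 called and a median log2 difference of 0.19, against -0.01 over all tested probe sets. This median had no stable sign: it was -0.20 with no filter on low values, -0.06 without Dahl S kidney 2, -0.01 without congenic kidney 4 and 0.36 without congenic kidney 5. Cldn2, the cation pore of the proximal tubule, read 5079, 6903 and 5963 against 7766 and 5879, so congenic kidney 5 lay inside the Dahl S range. Cldn5 and Cldn12 had log2 differences of 0.22 and -0.04. On A the claudins measured were Cldn3 (1722 ± 407, SD, n = 3) and Cldn7 (871 ± 16.2). Of the EGF family and its receptors 3 of 10 were measured on A, namely Erbb3 (671 ± 87.8, SD, n = 3), Erbb2 (593 ± 37.5) and Nrg1 (385 ± 59.6). The receptor of Egf itself, Egfr, read 93.6 to 161.2 in the Dahl S kidneys, below the filter. On B Erbb3, the 1 tested gene of this list, had a log2 difference of -0.09 (limma adjusted p = 0.998), and of 0.06 without congenic kidney 5. Among 17 transcription factors of the distal nephron, 2 were tested on B and 1 on C, with 0 called: Tfap2b and Emx2 on B (log2 differences 0.18 and -0.09) and Mecom on C (0.07). Pax8 (2251 ± 151, SD, n = 3) and Pou3f3 (1606 ± 199) were measured on A.

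Probe sets with the pattern most like a member over the 5 kidneys of its array were found by Pearson correlation of log2 signal, among measured probe sets of other genes that varied at least as much. With 5 kidneys of 1 array, which share scaling, high correlations arise easily among so many probe sets, and they are given as a description. For Umod the nearest were Rapgef3, Aebp1 and Cd74 X14254cds_g_at (r = 0.9995, 0.997 and 0.983), among 2289 probe sets. The brighter Cd74 probe set, X13044_at, differed from Umod in having kidney 1 highest. For Slc12a1 they were Hoxa5, Stat6 and Slc22a6, the organic anion transporter of the proximal tubule (r = 0.992, 0.973 and 0.965). For Kcnj1 AF081366_s_at they were Canx, Nr1d1 and Ndufb2 (r = 0.993, 0.990 and 0.983). Nr1d1 (Rev-erb alpha), a repressor of the circadian clock, read 420.1, 504.8 and 210.1 in kidneys 1 to 3 and 509.8 and 209.3 in kidneys 4 and 5, with kidneys 3 and 5 low as on the Kcnj1 probe set. For Kcnj16 rc_AA892312_at they were Pla2g2c, Rbmx and Shb (r = 0.999, 0.995 and 0.994), and 72 probe sets reached 0.95. For Egf X12748cds_s_at they were Nr1h4, the bile acid receptor, Rdh16 and Acadsb (r = 0.982, 0.979 and 0.974). Acadsb read 294.1, 545.4 and 360.2 in kidneys 1 to 3 and 1544 and 375.5 in kidneys 4 and 5, so kidney 4 stood well above the rest. For Cldn10 on B they were Pot1, Pofut2 and N4bp2l2 (r = 0.999, 0.979 and 0.971).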

How the data were processed

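The values deposited by the authors are linear signal intensities per probe set, with no log and none below 0. The software behind them is not given in the sources used here, and whether background was subtracted is unknown. Each array had been scaled before deposit, since its mean without the top and bottom 2% of values lay between 1000.57 and 1001.35.

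From these, each design was processed alone: signals under the 25th percentile of the design (85.1, 140.1 and 153.6 on A, B and C) were set to it before the log2 step. Probe sets with a mean of at least the median of the design were kept, without the 59 controls: 4411 on A, 4385 on B and 4420 on C. Strains were compared on B and C with lmFit and eBayes (limma 3.58.1, R 4.3.3) and Benjamini-Hochberg adjustment over all tested probe sets, checked on simulated data. Symbols came from the platform annotation, updated by gene identifier to RefSeq of GRCr8 (6985 of 7006 probe sets with 1 symbol matched on A, 5333 of 5351 on B, 5804 of 5821 on C); the array annotation names no build. A gene on a list was read from its brightest probe set.

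The members and lists were chosen with earlier results of these data known. The text names every member probe set, from each partner list the 3 genes with the smallest p (B and C) and the highest Dahl S mean (A), from marker lists the 2 brightest on A, and for each member but Kcnj10, which was not measured, the 3 probe sets most like its brightest one. Egfr, Kcnj2, Map2k6, the second Cd74 probe set, Oxsr1 on A and B, Wnk1 on C, the Kcnj16 neighbours and the windows printed were chosen after values were seen. All 11 motifs searched are reported. Alternatives were another scaling, floor, filter or variance model, array weights, and leaving out each array.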

Additional observations from a re-analysis of the deposited data

Results flagged for a closer look

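A pair of results on array A, picked out after the values were seen, came from kidneys 4 and 5, whose strain is unsettled and which no comparison used. Both kidneys lay above all 3 Dahl S kidneys for Kcnj1 S78154_at, where the lower of them was 1.09 times the highest Dahl S value, and for Kcnj16 X83581cds_at, where it was 1.07 times. With quantile normalisation the ratios were 1.14 and 1.05, and with median scaling 1.11 and 1.08. The other Kcnj1 and Kcnj16 probe sets did not place both kidneys above the Dahl S range. Of the measured probe sets of A, 8.82% had both kidneys above. The difference was not tested.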

How the results depend on the processing

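The log2 strain difference of Cldn10 stayed positive and short of the threshold in each of 14 alternatives, between 0.09 (without congenic array 5) and 0.25 (without congenic array 4), with limma adjusted p between 0.952 and 1. On array B the 4 calls over all probe sets became 1 under each of 6 settings, namely array weights, a 75th percentile filter, scaling by quantiles or by the median, and floors at the 10th and the 40th percentile, and 0 to 31 when 1 array was left out (31 without congenic array 5). On array C the 0 calls became 2 without a filter on low values, 1 with an intensity trend and robust variance, and 0 to 35 when 1 array was left out (35 without congenic array 5). The cause was not tested. Levels in the Dahl S kidneys of A changed by more than their SD in 1 of 66 recalculations, Kcnj1 S78154_at with kidneys 4 and 5 counted as Dahl S (7904). The ratio of the lower of kidneys 4 and 5 to the highest Dahl S value on A moved in 3 of 22 recalculations. For Umod it went from 0.770 to 0.897 with quantile normalisation. With median scaling it went from 0.700 to 0.795 for Kcnj16 rc_AA892312_at and from 0.754 to 0.856 for Kcnj10 X83585cds_s_at. All of these ratios stayed below 1. The medians of the lists moved by more than the spread of the Dahl S kidneys in 38 of 333 recalculations. They changed sign in at least 1 recalculation for the thick ascending limb partners (B and C). On B they also did so for the claudins, potassium channels, EGF family and transcription factors, and for the intercalated cell, endothelial and reference gene lists. Sign changes of the other lists on C are not given here. No paired analysis was possible because the strains of an array share no replicate number. The number of arrays limits the precision: 3 against 2 kidneys.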
